A study of Mus musculus with 6 samples.

Results

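Semaphorins, their plexin receptors and the neuropilin co-receptors were examined in macrophages from the epididymal fat of obese and lean mice. The genes were all those on the array whose row carried 1 gene symbol that was a numbered semaphorin (Sema), a plexin of the A, B, C or D class, or a neuropilin. They numbered 29 of the 30142 genes tested: 19 semaphorins, 9 plexins and 1 neuropilin, Nrp2. The row of a gene was chosen by its mean over the 6 arrays, the highest being kept, and each of the 29 had 1 row, so no row was dropped. The family itself was taken up with earlier results of these data known. The rows of Nrp1 and Sema4a carry the symbol of a microRNA gene as well and were not analysed here.

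Male C57BL/6J mice were put on a diet with 60% fat (HFD) or on normal chow (NCD) at 6 weeks of age and kept on it for 16 weeks, to 22 weeks of age. The stromal vascular fraction of the fat, released by collagenase, was stained with an antibody to the macrophage surface antigen that Adgre1 encodes, and the labelled cells were selected magnetically. Each of 3 HFD samples pooled 10 mice and each of 3 NCD samples pooled 20 mice, and 100 ng of RNA from each pool went onto 1 Affymetrix array. The arrays are called HFD1 to HFD3 and NCD1 to NCD3. The pool is the unit of replication, so the errors and p values describe the spread between pools and not between mice. Diet and the number of mice in a pool cannot be told apart.

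Semaphorins are secreted or membrane-bound signals first known for steering growing axons, and also act on vessels, immune cells and bone. Most bind plexins, large receptors whose intracellular part inactivates small Ras-like GTPases, so that integrin adhesion and the actin skeleton of the receiving cell are altered. Secreted class 3 semaphorins mostly need a neuropilin to hold them to the plexin, and neuropilins also bind vascular endothelial growth factors. In mice, Sema3e acting on Plxnd1 is known to draw macrophages into obese visceral fat.

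After HFD the receptors Plxna1 and Plxnb2 and the ligand Sema4d were called higher. The ligands Sema3a, Sema3c, Sema4b, Sema5a and Sema6d were called lower, Sema3a at levels near background. Thus 3 of 29 genes were called higher (10.3%) and 5 lower (17.2%), against a background of 4.96% and 2.87% of all genes tested. In either direction the calls were 8 of 29, against 7.83% of all genes. A call is an adjusted p below 0.05 in limma, with Benjamini-Hochberg adjustment over all 30142 genes. Differences are given as HFD minus NCD on the log2 scale, ± the standard error that limma gave for 3 arrays per diet. The HFD and NCD values did not overlap for 12 of the 29 genes (41.4%), against 30.6% of all genes. The median difference was -0.18 for the 29 genes, -0.70 for the 19 semaphorins (the value of Sema3a, whose HFD pools are below background), 0.01 for the 9 plexins and 0.01 for all genes.

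The counts moved with single arrays, and the fits without 1 array also have fewer degrees of freedom. The 3 genes called higher became 1 without HFD1 or NCD2, 0 without HFD2 or HFD3, 4 without NCD1 and 3 without NCD3. The 5 called lower became 1 without HFD1, HFD2 or HFD3, 2 without NCD2, 3 without NCD3 and 12 without NCD1. With the endothelial markers as a covariate 0 were called higher and 2 lower, and with the fibroblast markers 0 and 0. The fibroblast covariate was 0.05 to 0.68 in HFD pools and -0.48 to -0.23 in NCD pools. The fit with it can therefore hardly separate it from diet, and the lost calls do not decide between them. The endothelial covariate was -1.57 to -0.04 in HFD pools and -0.38 to 2.01 in NCD pools, overlapping only through HFD1 and NCD1. It too went largely with diet, so calls lost with the endothelial covariate, here and below, do not decide between endothelial markers and diet. Of the 8 called genes, Sema5a alone was called whichever array was left out.

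**Figure D1:**
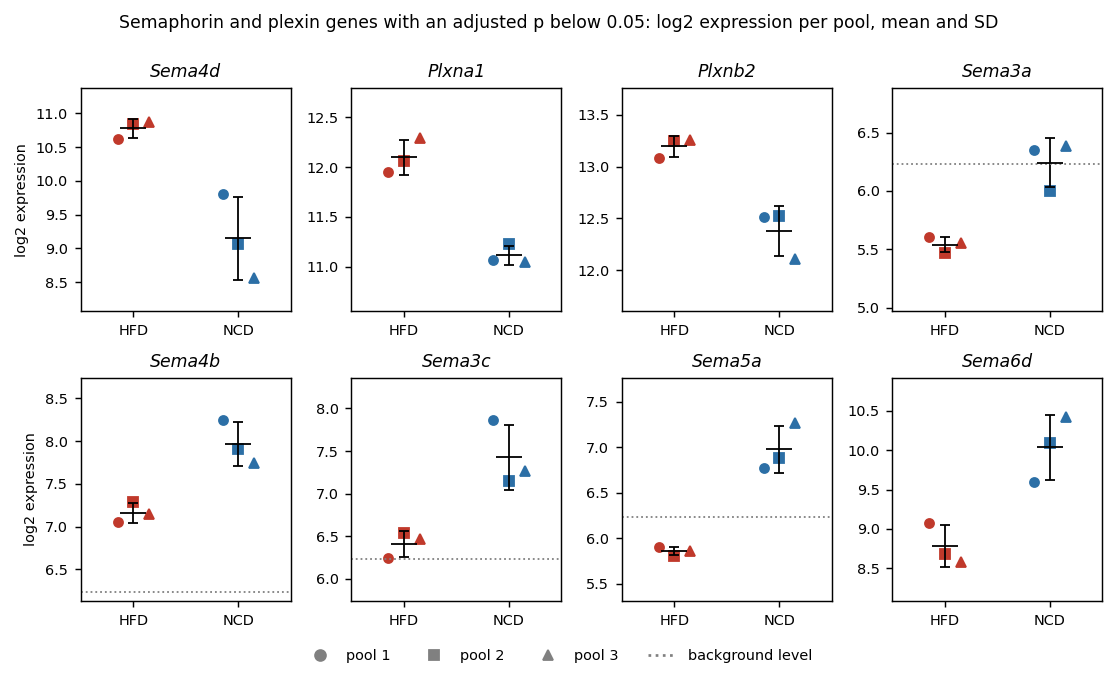
Log2 expression of the 8 called genes in each pool, HFD at left and NCD at right. Symbols mark the pool number, bars give mean and SD (n = 3), and the dotted line is the array background level of 6.23. Values of the diets do not overlap in any of the 8 panels, and the HFD pools of Sema3a and Sema5a lie under the background line.

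The array background, the mean over arrays of the 95th percentile of 23 antigenomic probe sets, was 6.23 log2, and 9 of the 29 genes had a mean below it. These were Sema3a, Sema3b, Sema3d, Sema3e, Sema4f, Sema4g, Sema5b, Sema6c and Plxnb3. Of them, 7 were at or below the background of their own array on all 6 arrays, and the exceptions were Sema3a (above it on 2 arrays) and Sema4g (on 1). Of the genes with a mean at or above background, 8.73% were called higher and 4.59% lower over the whole array.

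The plexins that rose were Plxna1 and Plxnb2. Plxna1, a receptor for class 3 semaphorins with neuropilins and for Sema6d, had 11.95, 12.06 and 12.30 log2 in HFD1 to HFD3, against 11.07, 11.23 and 11.05 in NCD1 to NCD3. Every HFD pool lay above every NCD pool, and the gap was wide beside the spread within either diet. The change was 0.99 ± 0.13 (1.98-fold, adjusted p = 0.0112 in limma), and the call was lost without HFD2 or HFD3. With a covariate of endothelial markers the change was 0.90 (adjusted p = 0.102).

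Plxnb2, a receptor for class 4 semaphorins, had 13.08, 13.25 and 13.26 log2 in HFD pools and 12.51, 12.52 and 12.10 in NCD pools. The diets did not overlap, and NCD3 was the lowest pool. The change was 0.81 ± 0.15 (1.76-fold, adjusted p = 0.0266), and the call was lost without HFD1, HFD2, HFD3 or NCD2. Without each array in turn its change lay between 0.68 and 0.89, and with the endothelial covariate it was 0.56 (adjusted p = 0.264).

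Sema4d (CD100), a transmembrane class 4 semaphorin that is shed and binds B-class plexins and the immune receptor Cd72, was the semaphorin that rose. It had 10.62, 10.84 and 10.87 log2 in HFD pools and 9.80, 9.07 and 8.57 in NCD pools. The HFD pools were close together, while the NCD pools spread over 1.23 log2 with NCD1 nearest to the HFD pools. The change was 1.63 ± 0.30 (3.1-fold, adjusted p = 0.0266). The call was lost without HFD1, HFD2, HFD3 or NCD2, and the change was 0.84 (adjusted p = 0.162) with the endothelial covariate.

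Plxnc1, a receptor for Sema7a, had 11.21, 11.66 and 11.75 log2 in HFD pools and 11.24, 10.68 and 10.22 in NCD pools. HFD1 lay just under NCD1, so the diets overlapped, and the difference of 0.83 ± 0.28 was not called (adjusted p = 0.132). It was called without NCD1 (1.09, adjusted p = 0.0255) and was 0.05 with the endothelial covariate. Plxnd1, the receptor for Sema3e, had 12.97, 13.12 and 12.95 log2 in HFD pools and 13.01, 13.45 and 13.29 in NCD pools. Its difference of -0.24 had a 95% interval of -0.58 to 0.10 (adjusted p = 0.373).

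Nrp2, a co-receptor of class 3 semaphorins and of Vegfc, had 13.17, 13.10 and 12.99 log2 in HFD pools, all between the lowest and the highest of the NCD values of 12.47, 13.16 and 13.46. The difference was 0.06 with a 95% interval of -0.54 to 0.65, and 0.68 with the endothelial covariate (adjusted p = 0.232). Plxna4, which serves class 3 and class 6 semaphorins, differed by -0.13 with an interval of -0.76 to 0.51. Plxna3 and Plxnb1, with means near background, differed by 0.15 and -0.12.

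**Figure D2:**
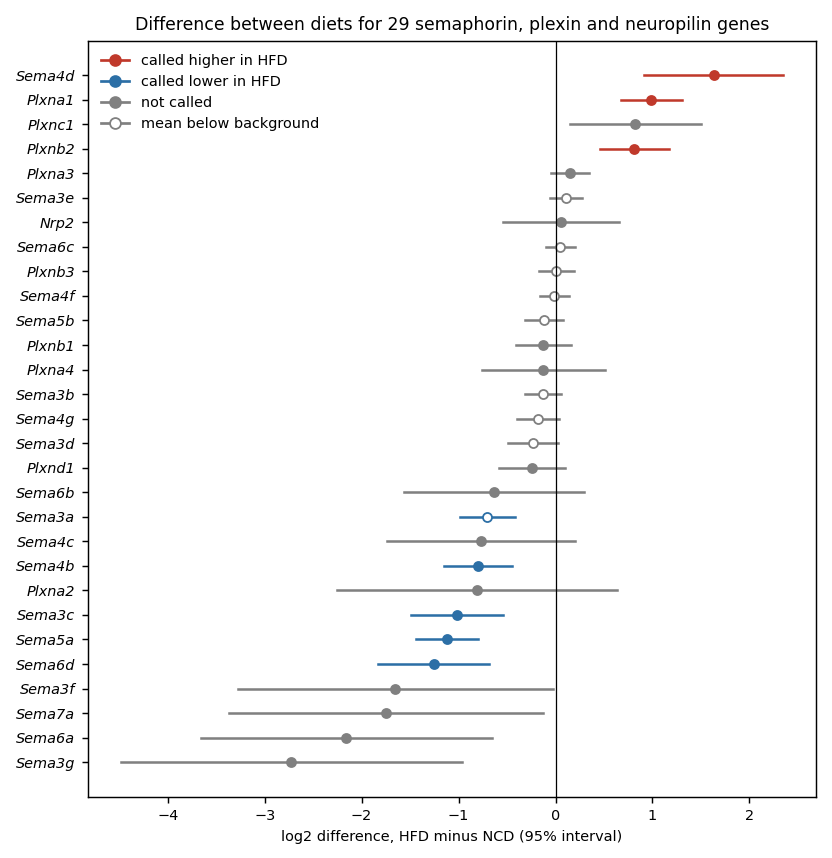
Log2 difference, HFD minus NCD, for the 29 genes with the 95% interval from limma, ordered by size. Red marks genes called higher, blue called lower, grey not called, and open circles a mean below background. Sema3g, Sema6a, Sema7a and Sema3f have the lowest differences and the widest intervals of the semaphorins, and none of the 4 was called.

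Among secreted semaphorins, Sema3c fell, and Sema3a was called lower at levels near background. Sema3c, a class 3 semaphorin that binds both neuropilins, had 6.24, 6.53 and 6.46 log2 in HFD pools and 7.86, 7.15 and 7.26 in NCD pools, with NCD1 the highest. It fell by 1.01 on the log2 scale (SE 0.20, 2.02-fold, adjusted p = 0.0312), and HFD1 was not above its own background level. The call was lost without HFD1, HFD2, HFD3, NCD2 or NCD3. With the endothelial covariate the value was -1.52 (adjusted p = 0.0167).

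Sema3a, the classical repellent of axons, acts through Nrp1 and A-class plexins. It had 5.60, 5.47 and 5.55 log2 in HFD pools, all under background, and 6.35, 6.00 and 6.38 in NCD pools, of which NCD1 and NCD3 were above it. The difference was -0.70 ± 0.12 (adjusted p = 0.0207), and no fold is given because the NCD mean is not above the HFD background of 6.28. The values therefore show no change in size above background. The call was lost without HFD1, HFD2 or HFD3, and with the endothelial covariate (-0.72, adjusted p = 0.157). Sema3e, the ligand of Plxnd1, averaged 5.05 ± 0.07 log2 in HFD pools and 4.95 ± 0.06 in NCD pools (SD, n = 3 each) and was not above background in any of the 6. The remaining members with a mean below background differed by -0.23 (Sema3d) to 0.05 (Sema6c).

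Of the membrane semaphorins, Sema5a, Sema6d and Sema4b fell. Sema5a, which carries thrombospondin repeats and binds Plxnb3, had 5.90, 5.81 and 5.86 log2 in HFD pools, none above background. The NCD pools had 6.78, 6.89 and 7.27, all above it. The measured difference was -1.12 ± 0.13 (adjusted p = 0.00890), and against the HFD background level Sema5a was at least 1.62-fold lower. The value was -0.97 to -1.22 without each array in turn, called each time, and -0.85 (adjusted p = 0.0750) with the endothelial covariate.

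Sema6d, a transmembrane ligand of Plxna1 that in mice also signals back into macrophages, had 9.08, 8.67 and 8.58 log2 in HFD pools and 9.60, 10.09 and 10.42 in NCD pools. HFD1 and NCD1 were the nearest pools of the diets. It fell by 1.26 on the log2 scale (SE 0.24, 2.39-fold, adjusted p = 0.0291), and the call held without NCD1 and was lost without any other array. The value was -0.60 (adjusted p = 0.131) with the endothelial covariate.

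Sema4b, a transmembrane class 4 semaphorin, had 7.05, 7.29 and 7.15 log2 in HFD pools and 8.24, 7.91 and 7.74 in NCD pools. The diets did not overlap, and NCD1 was the highest pool. It fell by 0.80 on the log2 scale (SE 0.15, 1.74-fold, adjusted p = 0.0267). The call was lost without HFD1, HFD2, HFD3 or NCD2, and with the endothelial covariate the value was -1.16 (adjusted p = 0.0237).

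Promoter sequence is shown for called genes with contrasting composition, from the RefSeq table of build GRCm38.p6. A promoter was listed for 24 of the 29 genes and 7 of the 8 called ones; Plxna1 had none. Each line gives the 150 bases before the first listed start, 5′ to 3′ on the gene's strand, with capitals marking a GC box (GGGCGG on either strand).
Sema4d: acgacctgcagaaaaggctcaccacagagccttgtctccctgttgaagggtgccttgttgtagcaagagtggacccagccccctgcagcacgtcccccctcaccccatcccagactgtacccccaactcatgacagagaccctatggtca
Plxnb2: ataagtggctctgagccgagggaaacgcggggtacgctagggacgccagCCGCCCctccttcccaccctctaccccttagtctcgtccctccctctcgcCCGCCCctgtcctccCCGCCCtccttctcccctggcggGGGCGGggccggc
Sema3c: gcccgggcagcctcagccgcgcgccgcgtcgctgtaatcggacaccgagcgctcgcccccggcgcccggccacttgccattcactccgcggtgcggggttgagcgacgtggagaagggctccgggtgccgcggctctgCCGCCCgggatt
Sema5a: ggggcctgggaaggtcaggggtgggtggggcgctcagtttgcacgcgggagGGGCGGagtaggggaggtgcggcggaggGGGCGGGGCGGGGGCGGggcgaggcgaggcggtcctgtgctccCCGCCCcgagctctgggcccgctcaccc
Sema3a: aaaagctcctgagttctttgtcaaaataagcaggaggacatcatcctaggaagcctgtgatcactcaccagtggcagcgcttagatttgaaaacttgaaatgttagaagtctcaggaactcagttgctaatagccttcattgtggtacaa
The windows are chr13:51748811-51748960 (- strand) for Sema4d, chr15:89180789-89180938 (- strand) for Plxnb2, chr5:17574666-17574815 (+ strand) for Sema3c, chr15:32244663-32244812 (+ strand) for Sema5a and chr5:13396634-13396783 (+ strand) for Sema3a. Over the 250 bases before each start, the GC share was 55.2% for Sema4d and 40.8% for Sema3a, against 69.2% for Plxnb2, 78.4% for Sema3c and 72.0% for Sema5a. The numbers of CpG dinucleotides were 2 for Sema4d and for Sema3a, 20 for Plxnb2, 39 for Sema3c and 17 for Sema5a. Among these 5, 1 gene called higher and 1 called lower (Sema3a, near background) had few CpG. Of the others, 1 called higher and 2 called lower had many. Sema4d has 3 listed starts and Plxnb2 has 2, and the array rows do not say which was used.

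Over these 250-base windows, read on both strands, a GC box lay in 23 of 32 windows of the family, against 32.7% of all 32851 windows. Median GC was 64.4% in the family and 52.4% in all windows. The AP-1 motif TGANTCA lay in 3 of the 32 windows, those of Sema4c, Sema4d and Sema6b (6.75% of all windows), and the E-box CACGTG in 2, those of Sema4b and Sema6d (6.02%). The PU.1 motif GAGGAAGT and the TATA box TATAAA lay in 0 of the 32 windows (2.44% and 12.4% of all windows). In Sema5a 3 GC boxes lie side by side or overlap by 1 base, and a match describes letters only, not binding.

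In 7 genes the pools of each diet stood in a shared order: Sema3f, Sema3g, Sema4c, Sema6a, Sema6b, Sema7a and Plxna2. In each, NCD1 was at least 0.5 log2 below both other NCD pools and HFD1 at least 0.5 above both other HFD pools. The set was noticed after the values were seen, so it is described without a test. Because a low NCD1 was part of the choice, a larger fall without NCD1 was fixed in advance for these 7 genes. The same order held in 15 of 15 endothelial markers, in 5 of 13 smooth muscle and pericyte markers (Acta2, Tagln, Myh11, Myl9 and Mcam), and in 1.61% of all genes. It held in 1 marker each of the fibroblast (Cd34), mesothelial (Cldn15) and dendritic cell (Zbtb46) lists and in 0 of 11 macrophage markers. Sema6d was just outside it, with gaps of 0.49 and 0.41.

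Sema3g, a secreted ligand of Nrp2 made by endothelial cells, had 8.92, 8.14 and 8.06 log2 in HFD pools and 9.36, 11.58 and 12.36 in NCD pools. The diets did not overlap, but the NCD pools spread over 3.00 log2. The difference of -2.73 ± 0.74 was not called (adjusted p = 0.0758), became -3.60 without NCD1 (adjusted p = 0.00490) and was -0.61 with the endothelial covariate (adjusted p = 0.540). Sema3f, another ligand of Nrp2, had 9.46, 8.01 and 8.18 log2 in HFD pools and 8.86, 10.34 and 11.42 in NCD pools. HFD1 lay above NCD1, and the difference of -1.65 ± 0.68 was not called (adjusted p = 0.198).

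Sema6a, a transmembrane ligand of Plxna2 and Plxna4, had 10.96, 9.78 and 9.64 log2 in HFD pools and 10.93, 12.82 and 13.09 in NCD pools. Here HFD1 and NCD1 were level, and the difference of -2.16 ± 0.63 was not called (adjusted p = 0.0910). Its receptor Plxna2 had 10.33, 9.54 and 9.81 log2 in HFD pools and 9.27, 11.13 and 11.70 in NCD pools. NCD1 was the lowest of the 6 pools, and the difference was -0.81 ± 0.60 (adjusted p = 0.483).

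Sema7a, a membrane-anchored ligand of beta1 integrins and Plxnc1, had 9.55, 8.34 and 8.19 log2 in HFD pools and 8.94, 11.15 and 11.24 in NCD pools. The diets overlapped through HFD1 and NCD1, and the difference of -1.75 ± 0.68 was not called (adjusted p = 0.175). Sema4c and Sema6b differed by -0.77 and -0.64, with 95% intervals that included 0. With the endothelial covariate Sema3f, Sema4c, Sema6b, Sema7a and Plxna2 had values of 0.35, 0.41, 0.48, 0.25 and 0.89, and Sema6a had -0.30, none of them called. Without NCD1 all 7 were called lower. The 7 genes were picked for a low NCD1 and for an order that the endothelial markers share. The choice thus largely set both results, and neither is a test of the genes.

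**Figure D3:**
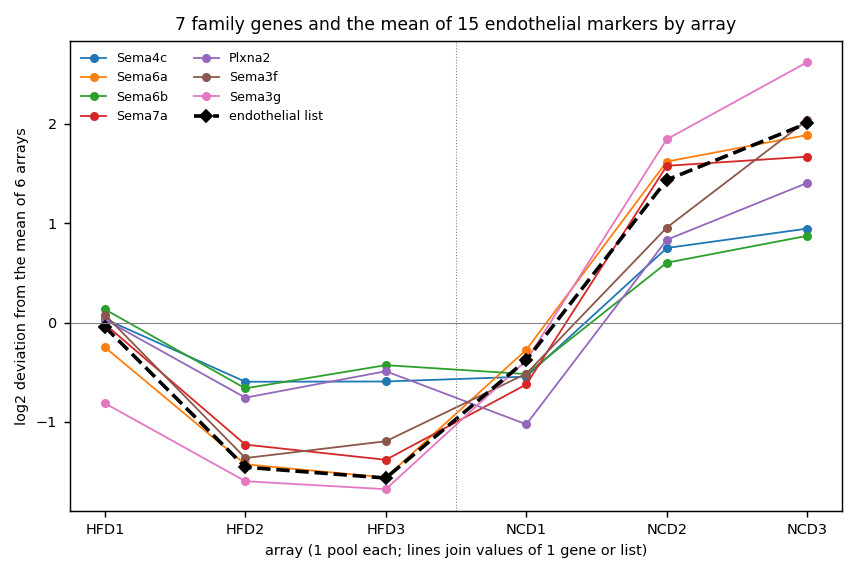
Deviation of log2 expression from each gene's mean over the 6 arrays, for 7 family genes (thin lines) and the mean of 15 endothelial markers (dashed black line), HFD arrays at left and NCD arrays at right. NCD2 and NCD3 are highest for every line, and HFD1 lies above HFD2 and HFD3.

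Cell type markers are given here for the whole lists, whether or not they moved with these genes. Beside the counts of calls in each list, 4.96% of all genes were called higher and 2.87% lower. All 11 measured macrophage markers had means above background, 2 of them rose and 1 fell, with mean deviations of 0.05 to 0.24 in HFD pools and -0.60 to 0.12 in NCD pools. All 15 endothelial markers, Pecam1, Cdh5 and Tie1 among them, also had means above background although the cells were selected for a macrophage antigen. Their mean deviation was -0.04, -1.46 and -1.57 in HFD1 to HFD3 and -0.38, 1.44 and 2.01 in NCD1 to NCD3, and 0 of 15 were called. Their summed linear intensity was 164581 to 342896 in HFD pools and 295658 to 977082 in NCD pools.

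Mesothelial markers were lower in 8 of 10 and higher in 0, with deviations of -0.82, -1.17 and -0.95 in HFD pools and 1.29, 0.76 and 0.89 in NCD pools. Their sums were 869 to 1439 in HFD pools and 5283 to 9076 in NCD pools, and Krt19, Krt7, Msln, Muc16 and Wt1 had means below background. Smooth muscle and pericyte markers were lower in 7 of 13 and higher in 0. Their deviations were -0.70, -1.39 and -1.63 in HFD1 to HFD3 and 0.23, 1.21 and 2.28 in NCD1 to NCD3, with sums of 5214 to 14113 in HFD pools and 48612 to 194318 in NCD pools. Fibroblast and progenitor markers were higher in 6 of 11 and lower in 1. Their deviations were 0.68, 0.30 and 0.05 in HFD1 to HFD3 and -0.33, -0.48 and -0.23 in NCD1 to NCD3. Their sums were 11035 to 20075 in HFD pools and 13988 to 20235 in NCD pools. Most of the NCD sums was Dcn and Cd34, which were at -0.88 and -1.59 and were not called. Dendritic cell markers were lower in 2 of 7 (Cd209a and Siglech) and higher in 0. Their sums were 1090 to 1493 in HFD pools and 4364 to 6562 in NCD pools. Most of the NCD sums was Cd209a alone, at 12.15, 12.36 and 11.63 log2 in NCD1 to NCD3. Zbtb46 and Ccr7 were at -1.20 and -0.37 and Clec9a at 0.42, none of them called. Flt3 and Xcr1 had means below background. Adipocyte (7), T cell (7), B and plasma cell (6) and Schwann cell (3) markers had 0 called, and 2 of 5 of epididymal epithelium were lower, with all 5 means below background. The endothelial covariate went largely with diet and the fibroblast covariate stood apart by diet, so neither fit decides the part of these cells. Their part in the differences of semaphorins and plexins was not tested otherwise. In pooled RNA, fewer cells of a type and less RNA per cell cannot be told apart.

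The wider signalling list held partners, ligands and effectors of plexins and neuropilins, 73 of 78 of them measured. The list was chosen with earlier results of these data known. Of the 73, 13 rose (17.8%), 5 fell (6.85%) and 55 were not called, beside 4.96% and 2.87% of all genes, and the median was 0.06. Only 7 of the 73 had a mean below background, against 47.8% of all genes. Of all genes with a mean at or above background, 8.73% were called higher and 4.59% lower. Higher calls numbered 9 without HFD1 or NCD3, 5 without HFD2, HFD3 or NCD2 and 15 without NCD1. Lower calls numbered 1 without HFD1, 0 without HFD2, HFD3 or NCD2, 3 without NCD3 and 17 without NCD1. Calls that held whichever array was left out, and that held beside the endothelial markers too, numbered 5: Plxdc1, Cd72, Trem2, Rasa1 and Nrcam, each of them higher. With the fibroblast covariate Plxdc1 alone of these was called (adjusted p = 0.0341 in limma). With the replicate block Rasa1 was not called (adjusted p = 0.0574).

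Among receptors and co-receptors, 4 of 17 rose and 2 fell. For this and each further part of the list, the share over all genes was 4.96% higher and 2.87% lower. Cd72, the immune receptor of Sema4d, had 11.74, 11.57 and 11.66 log2 in HFD pools and 8.49, 8.04 and 7.95 in NCD pools. It rose with Sema4d in the same pools, by 3.50 ± 0.16 (11.3-fold, adjusted p = 0.000717). Trem2, known in mice to associate with Plxna1 and the adaptor Tyrobp, rose by 2.85 ± 0.17, while Tyrobp itself was at 0.87 ± 0.29 (adjusted p = 0.122). The integrin chain Itgav rose by 1.71 ± 0.25 (3.26-fold), a call lost without HFD2, HFD3 or NCD2 and with the endothelial covariate (1.04, adjusted p = 0.0605).

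Nrcam, an adhesion molecule that partners Nrp2, had 6.39, 6.33 and 6.47 log2 in HFD pools. The NCD values of 5.13, 5.13 and 5.08 were not above background, so Nrcam was at least 1.16-fold higher (measured difference 1.28 ± 0.07, adjusted p = 0.00138). The integrin chain Itgb3 fell by 0.67 on the log2 scale and Met, the receptor of Hgf and a partner of B-class plexins, by 1.04. The Itgb3 call was lost without HFD1, HFD2, HFD3 or NCD2, and the Met call without HFD2, HFD3 or NCD2. With the endothelial covariate Met was at -0.63 (adjusted p = 0.327). Plxdc1, a plexin-domain membrane protein that is not a plexin, had 9.80, 10.02 and 10.24 log2 in HFD pools and 6.30, 6.42 and 6.19 in NCD pools (3.72 ± 0.14, adjusted p = 0.000401).

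Of 7 other neuropilin ligands, Vegfa and Hgf rose and Vegfc fell. Vegfa, the main growth factor of blood vessels, had 8.68, 8.91 and 8.83 log2 in HFD pools and 8.12, 8.09 and 7.88 in NCD pools, a rise of 0.78 ± 0.12 (1.71-fold, adjusted p = 0.0146). Hgf, the ligand of Met, rose by 1.87 ± 0.33 (3.64-fold, adjusted p = 0.0232), and was at 1.01 with the endothelial covariate (adjusted p = 0.129). Vegfc, a lymphatic growth factor that binds Nrp2, had 8.31, 7.84 and 7.52 log2 in HFD pools and 9.26, 10.65 and 11.67 in NCD pools. It fell by 2.64 on the log2 scale (SE 0.58, adjusted p = 0.0430), with a value of -1.03 with the endothelial covariate (adjusted p = 0.255). The Vegfa call was lost without HFD2, HFD3 or NCD2, the Hgf call also without HFD1, and the Vegfc call without any array but NCD1.

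Of the shedding proteases, Adam17 rose by 0.73 ± 0.13 (adjusted p = 0.0261), while Adam10, Mmp14 and Furin had differences of -0.22, -0.08 and -0.03 and were not called. Of 20 adaptors and exchange factors 2 rose (10%), near the 8.73% of all genes with a mean at or above background. Mical2, an actin-oxidising enzyme, rose by 1.25 ± 0.20 (2.37-fold), and Gipc1, an adaptor that binds the tail of neuropilins and Plxnd1, rose by 0.69 ± 0.13. The Adam17 call held without NCD1 and was lost without any other array, and with the endothelial covariate Adam17 was at 0.45 (adjusted p = 0.239). The Mical2 call was lost without HFD2, HFD3 or NCD2, and the Gipc1 call also without NCD3.

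Among 14 genes of small GTPases and their regulators, Rasa1, a Ras inactivator, rose by 1.65 ± 0.16 (3.13-fold, adjusted p = 0.00522). Rras, a GTPase that plexins inactivate, fell by 1.32 on the log2 scale (SE 0.28), and Rnd1, which binds plexins from inside the cell, by 1.80 (SE 0.36). The Rras call held without NCD1 and was lost without any other array. The Rnd1 call was lost without HFD1, HFD2, HFD3 or NCD2. With the endothelial covariate Rras was at -0.55 (adjusted p = 0.285) and Rnd1 at -0.97 (adjusted p = 0.303). Of 9 effector kinases and actin genes, Pip5k1c rose by 0.59 ± 0.12 and cofilin, Cfl1, by 0.41 ± 0.09. The Cfl1 call was lost without each array in turn, at values of 0.37 to 0.45, and the Pip5k1c call held without NCD1 alone.

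**Figure D4:**
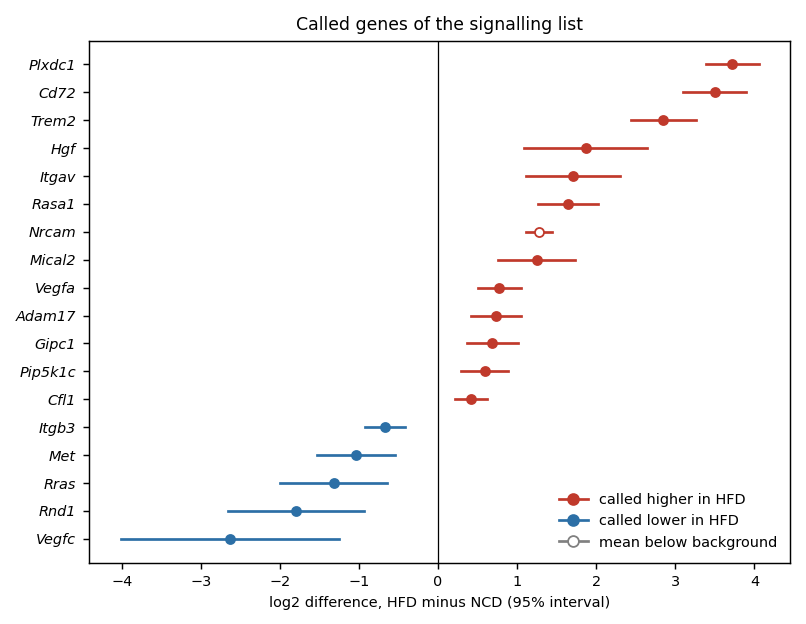
Log2 difference, HFD minus NCD, with the 95% interval from limma for the 18 called genes of the signalling list. Red marks the 13 genes called higher, blue the 5 called lower, and the open circle a mean below background. Plxdc1, Cd72 and Trem2 have the highest differences of the 18 and Vegfc the lowest.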

How the data were processed

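The deposited values are log2 expression per transcript cluster, 1 column per array, as the authors made them. Per the submitters' processing notes, RMA, Transcriptome Analysis Console (3.1.0.5) and Affymetrix Expression Console (1.4.1.46) were used. Which of them did which step, and on which build, is not given in the sources used here. Arrays have no read depth, so the number of arrays limits precision, and the median standard error of a difference was 0.118.

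Of 65956 transcript clusters, 30604 carried 1 gene symbol, 2146 several and 33206 none, and 6732 control rows were left out. The array annotation is old: 22818 clusters matched a current gene by identifier and 827 received a new symbol, none of them in the family. The row with the highest mean over 6 arrays was kept per gene, and dim genes were kept. HFD and NCD arrays entered a two-sided limma fit (version 3.58.1 in R 4.3.3, eBayes with a mean-variance trend), which was tested on simulated data. Promoters and figures used pandas 2.3.3 and matplotlib 3.10.9.

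Members, gene lists and markers were chosen with earlier results of these data known. Named in full were called genes, those with no overlap and a difference of at least 0.5 log2, and chosen genes with known roles. The 7 genes with a shared order of pools, and Plxna4 and Plxnc1, were added after values were seen. Alternatives were each array left out, the replicate number as a block, median centring, quantile scaling, 2 filters on dim genes, no trend, array weights, the mean of a gene's rows, and endothelial or fibroblast markers as a covariate.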

Additional observations from a re-analysis of the deposited data

How the results depend on the processing

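Median centring, quantile scaling, no trend, the mean of a gene's rows and the lowest 25% of genes dropped left the counts of the family at 3 higher and 5 lower; with genes above background only they were 3 and 4, Sema3a not being tested. Array weights gave 3 and 7. Without 1 array the counts ran from 0 to 4 higher and from 1 to 12 lower. With the endothelial covariate they were 0 and 2, and with the fibroblast covariate 0 and 0. The fibroblast covariate was higher in every HFD than in every NCD pool, and left 1 gene called of all tested (1 higher, 0 lower). Deviations of same-numbered pools correlated at -0.46, -0.12 and -0.15, and those of pools with different numbers at -0.30 to 0.40. Whether pools with the same number shared a batch cannot be told from these values. In the fit with the replicate block 0 family genes were called higher and 0 lower. With it 144 of all genes were called (90 and 54), and 4 and 0 of the signalling list.

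All genes called ran from 442 to 4713 without 1 array (316 to 2399 higher, 124 to 2314 lower), against 2359 (1494 and 865) with all 6. They were 4282 with array weights (2345 and 1937), 483 with the endothelial covariate (209 and 274), and 2573 higher and 693 lower with median centring, where the median of all genes was 0.10. The signalling list ran from 5 to 15 higher and 0 to 17 lower without 1 array. It had 10 lower with array weights, 5 higher and 0 lower with the endothelial covariate, and 1 higher and 0 lower with the fibroblast covariate.

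Signs turned for genes that were not called. Nrp2 was at -0.22 without NCD1 (-0.22 to 0.27 without 1 array), -0.0026 with array weights and -0.18 with the fibroblast covariate. Plxna4 was at 0.0617 without NCD3 (-0.44 to 0.0617 without 1 array) and 0.49 with the endothelial covariate. With that covariate Plxna2 was at 0.89, Sema3f at 0.35, Sema4c at 0.41, Sema6b at 0.48 and Sema7a at 0.25. The causes were not tested.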
